A study of Homo sapiens with 18 samples.

Results

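The genes described here are 10 Krüppel-like factors (KLF2, KLF3, KLF4, KLF5, KLF6, KLF7, KLF10, KLF11, KLF13 and KLF16), taken by gene symbol from tables of 40916 symbols. All 10 were present and all passed the filter on low counts in each comparison. The set was chosen by the fall of KLF2 counts in irradiated mixed cultures, so the values of that contrast are given as a description without a test. The tables hold counts of poly(A) RNA in 18 libraries of 2 human cell lines. MCF10A, from breast epithelium, is not transformed and carried an H2B-GFP reporter. HCT116 comes from a colorectal carcinoma. Each line alone (monocultures) and a culture described as an equal mixture of both were left non-irradiated (NIR) or given 10 Gy of radiation (IR), with 3 biological replicates in each of the 6 groups. Each line had its own medium, and that of the mixtures is not stated. Day 2 is the time in the sample titles, while the series text gives 72 h after irradiation.

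Krüppel-like factors bind GC-rich and CACCC sequences through zinc fingers at their C-terminal end and regulate growth, differentiation and stress responses in epithelia. They form subgroups by the cofactors they recruit. KLF2, KLF4, KLF5, KLF6 and KLF7 are mainly activators, KLF3 is a repressor that binds CtBP, and KLF10, KLF11, KLF13 and KLF16 bind the SIN3A corepressor. KLF2 is best known from blood vessels, where the kinase ERK5 and MEF2 factors induce it, and from resting lymphocytes. In the gut KLF4 marks differentiating cells and KLF5 the dividing cells of the crypt.

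In GRCh38 with the GENCODE 29 annotation, KLF2 spans chr19:16324817-16327874 on the plus strand, KLF4 spans chr9:107484852-107490482, KLF6 spans chr10:3775996-3785281 and KLF7 spans chr2:207074137-207167267, the last 3 on the minus strand. The values are per gene, with no isoform or exon resolved.

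The sequence just upstream of 3 members is shown, chosen by their response: KLF2 and KLF7 had the largest falls in HCT116, and KLF16 was not called in either line. The bases are those of the RefSeq promoter windows (GRCh38.p14) that lie outside the GENCODE 29 gene, 5′ to 3′ on the gene's strand. Capitals mark 4 motifs searched on both strands, some of which share letters with each other: a palindromic MEF2-type site (its letters are the A- and T-rich run of capitals in the KLF2 line), TGACGTCA (a cAMP response element), CACCC and GGGCGG (a GC box).
KLF2, chr19:16324576-16324816, plus strand: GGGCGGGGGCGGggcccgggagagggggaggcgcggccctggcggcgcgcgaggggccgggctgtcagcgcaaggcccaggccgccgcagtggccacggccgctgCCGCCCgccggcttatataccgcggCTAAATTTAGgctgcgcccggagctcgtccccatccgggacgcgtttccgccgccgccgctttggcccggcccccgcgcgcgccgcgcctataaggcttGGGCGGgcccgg
KLF7, chr2:207167268-207167496, minus strand: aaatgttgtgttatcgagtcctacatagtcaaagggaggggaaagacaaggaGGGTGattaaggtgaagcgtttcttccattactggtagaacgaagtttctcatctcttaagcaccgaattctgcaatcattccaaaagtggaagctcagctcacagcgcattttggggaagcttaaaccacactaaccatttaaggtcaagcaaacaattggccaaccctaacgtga
KLF16, chr19:1863580-1863829, minus strand: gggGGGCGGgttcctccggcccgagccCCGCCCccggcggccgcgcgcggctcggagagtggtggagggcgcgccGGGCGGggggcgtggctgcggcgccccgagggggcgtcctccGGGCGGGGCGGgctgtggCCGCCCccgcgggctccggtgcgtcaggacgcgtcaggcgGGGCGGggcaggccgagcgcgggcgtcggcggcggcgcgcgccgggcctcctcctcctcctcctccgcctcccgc
The GC content of these stretches was 79.3% for KLF2, 43.2% for KLF7 and 86.4% for KLF16. RefSeq lists further starts for KLF7, and their windows are not shown. The window at chr2:207166857-207167106 held 4 GC boxes, the nearest at -43. Windows of 8 of the 10 members were used, 13 in all. KLF3 and KLF10 were not searched. Of the 13, the KLF2 window alone held the MEF2-type motif, which was present in 20 of 35116 windows of 250 bases (0.057%). Only this exact spelling, that of the KLF2 site, was searched, and other spellings of MEF2 sites were not. Its presence at KLF2 alone and its rarity thus depend on that choice and are no test. The site's nearest base lies at -111 from the RefSeq start. TGACGTCA was in 1 of the 13, at KLF11, against 1.65% of all windows. The stretch of KLF2 held 4 GC boxes, that of KLF16 held 7, and that of KLF7 none, against 42.6% of all windows with at least 1. CACCC was in 54.7% of all windows, in the KLF7 stretch and in neither of the other 2. A match describes letters and not a bound site.

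The library totals ran from 25737818 to 40839835 counts. Levels below are CPM, counts per 1000000 of the library total, and are compared within a gene only. Mitochondrially encoded genes took 5.10% to 5.32% of counts in MCF10A NIR and 6.06% to 6.35% in MCF10A IR. In HCT116 they took 8.42% to 8.75% and 11.5% to 12.3%, and in the mixtures 8.37% to 8.73% and 12.1% to 12.7%. The 10 basal mammary markers of MCF10A summed to 11520 CPM or more in every MCF10A library, with no marker at 0. They summed to 688 to 839 CPM in HCT116 NIR (TP63 and TGFBI at 0) and 1344 to 1552 CPM in HCT116 IR. The 10 intestinal markers summed to at most 11.2 CPM in MCF10A and at least 1181 CPM in HCT116. KRT19 (886 CPM in HCT116 NIR), EPCAM (315 CPM) and MYH14 (132 CPM) carried that sum, while CDX1 was at 0 and VIL1, CDH17, LGALS4 and GPA33 were under 1 CPM, so 5 of the 10 did not mark HCT116.

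Without irradiation the lines carried different KLF transcripts. KLF2 and KLF4 were far higher in HCT116, KLF5, KLF6, KLF7 and KLF13 were higher in MCF10A, and KLF10 was modestly higher in HCT116. These 7 of 10 members had an adjusted p under 0.05 (edgeR quasi-likelihood test), where 74.6% of all 16568 genes tested were called (38.6% higher and 36% lower in HCT116), so the count is near the background.

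KLF2 stood at 0.882, 0.817 and 1.09 CPM in the 3 MCF10A NIR libraries, from about 30 counts each (30, 29 and 32). It stood at 21.6, 21.6 and 27.2 CPM in HCT116 NIR. The groups were 25.2-fold apart in mean CPM without overlap (log2 difference 4.46, SE 0.181, adjusted p 3e-15). KLF4, a barrier and differentiation factor of gut and skin, was at 3.68, 4.06 and 2.77 CPM in MCF10A NIR and at 28.4, 32.0 and 31.6 CPM in HCT116 NIR (log2 difference 2.92, SE 0.138, adjusted p 4.2e-14). Both genes were thus scarce in the mammary line and well above that in every HCT116 library.

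The reverse order held for the growth-associated KLF5, at 253 ± 6.51 CPM in MCF10A NIR and 76.7 ± 4.03 CPM in HCT116 NIR (log2 difference -1.92, SE 0.056, adjusted p 1.2e-17). KLF7, known for its role in neurons and fat cells, was at 140 ± 2.31 CPM against 49.1 ± 0.100 CPM (-1.71, SE 0.056, adjusted p 9e-17). The differences were -0.88 for KLF6, an early-response factor with tumour suppressor activity, and -0.86 for KLF13, an activator of the chemokine CCL5 in T cells. KLF10, induced early by TGF-beta, differed by 0.31 (SE 0.054, adjusted p 3e-05). KLF3, KLF11 and KLF16 were not called (adjusted p 0.29, 0.48 and 0.84). Their mean CPM was slightly higher in HCT116 (1.09, 1.06 and 1.13 times) while their fitted log2 differences were slightly negative (-0.074, -0.11 and -0.023). With library size as the only scaling, the median over the tested genes was 0.25 in place of 0.049.

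**Figure D1:**
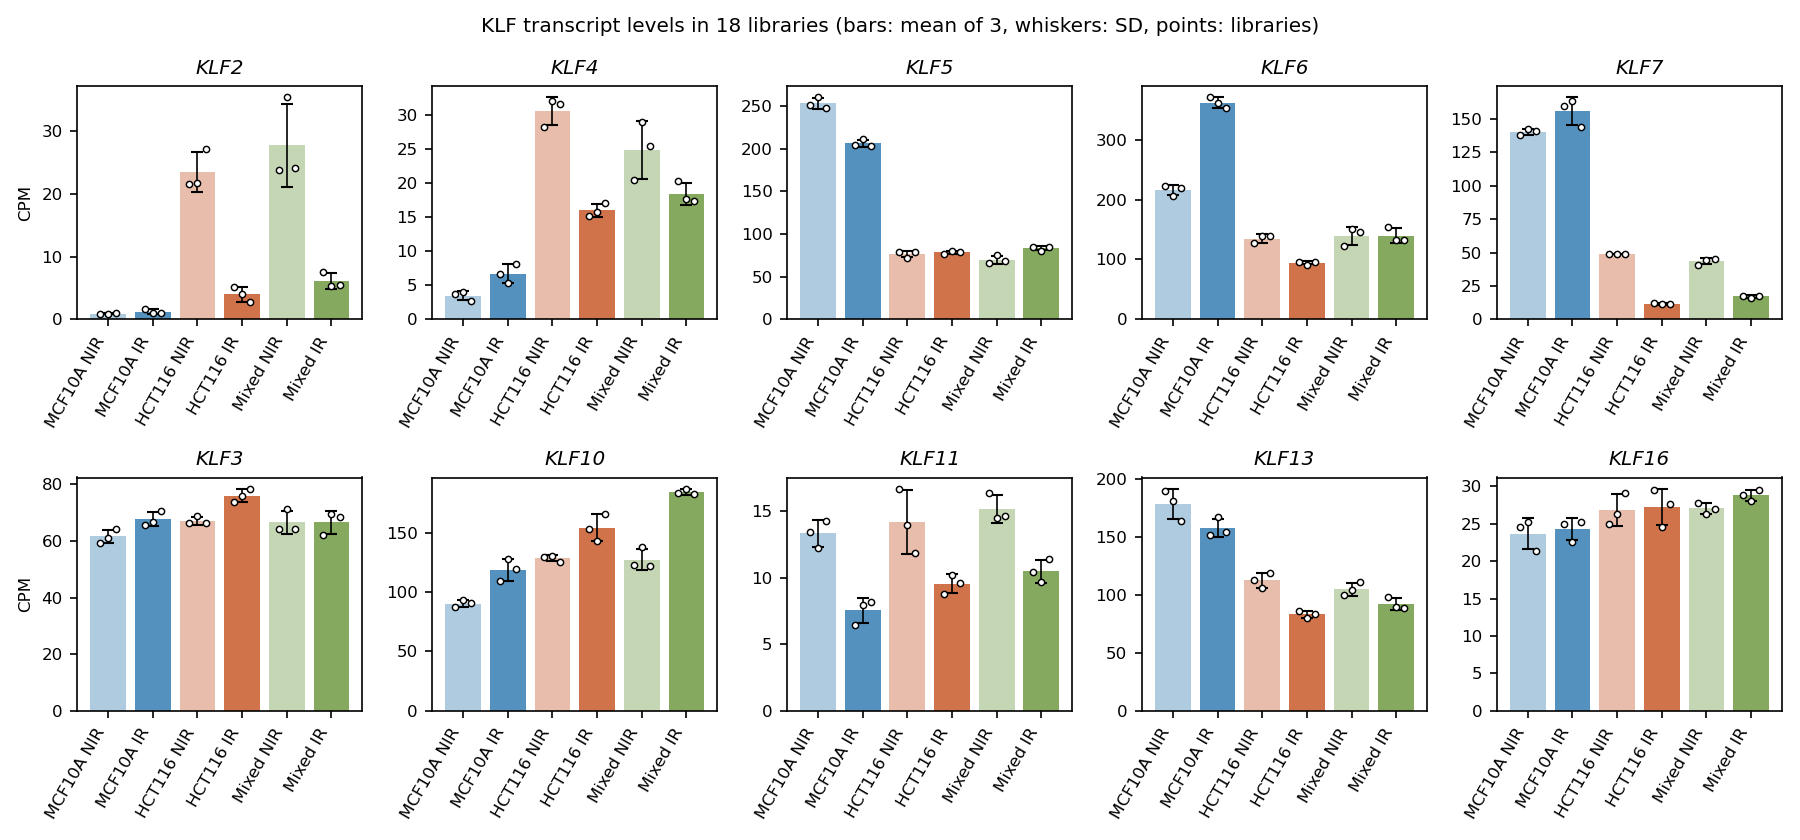
Level in CPM (y axis, linear, from 0, with its own range in each panel) of the 10 KLF genes in the 6 groups; bars are means of 3 libraries, whiskers SD and points libraries. KLF2 stood between 21.6 and 27.2 CPM in HCT116 NIR and between 2.72 and 5.12 CPM in HCT116 IR, while it was at most 1.65 CPM in the 6 MCF10A libraries.

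Irradiation of HCT116 lowered most of the activators. KLF2, KLF4, KLF6 and KLF7 fell, KLF11 and KLF13 fell among the SIN3A-binding repressors, and KLF3 and KLF10 rose slightly. Of the 10 members, 8 were called (2 higher, 6 lower), where 52.7% of 16857 tested genes were called, 25.4% higher and 27.3% lower. The members' median log2 fold change was -0.47, against 0.007 for all genes. The share of mitochondrially encoded genes was higher after irradiation, and with those genes left out the count of members called was again 8.

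KLF2 dropped from 21.6, 21.6 and 27.2 CPM to 5.12, 4.09 and 2.72 CPM. Every irradiated library lay below every non-irradiated one, and the means were 5.90-fold apart (log2 fold change -2.53, SE 0.166, adjusted p 7.1e-12). The fold change ran from -2.74 to -2.34 when single libraries were left out. A processed KLF2 pseudogene, KLF2P1, was counted at 2.26 ± 0.426 CPM in HCT116 NIR and 2.74 ± 0.929 CPM in HCT116 IR and had no count in MCF10A. How reads shared between the copies were counted is not given in the sources used here, so reads may be split between them and the KLF2 level after irradiation is uncertain. With both counted as 1 gene, a setting chosen after seeing the data, the level was 25.7 ± 2.78 CPM in HCT116 NIR and 6.71 ± 0.534 CPM in HCT116 IR, a smaller fall of 3.83-fold (log2 fold change -1.93, adjusted p 1.1e-13).

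KLF7 was at 49.0, 49.1 and 49.2 CPM in HCT116 NIR and at 12.4, 11.3 and 11.4 CPM in HCT116 IR. The replicates were tight and the groups far apart (4.2-fold, log2 fold change -2.06, SE 0.091, adjusted p 4.5e-17). KLF4 went from 28.4, 32.0 and 31.6 CPM to 15.3, 15.7 and 17.1 CPM (log2 fold change -0.93, SE 0.099, adjusted p 4.7e-09). KLF6 went from 127, 139 and 139 CPM to 96.1, 91.4 and 96.2 CPM (-0.51, SE 0.061, adjusted p 5.3e-08). None of these groups overlapped.

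Among the SIN3A-binding members KLF11, a regulator of metabolic genes, fell from 14.2 ± 2.42 to 9.56 ± 0.719 CPM (log2 fold change -0.56, adjusted p 0.00091). KLF13 fell from 112 ± 6.50 to 83.3 ± 2.99 CPM (-0.43, adjusted p 1.7e-06). KLF10 rose from 128 ± 2.49 to 154 ± 11.4 CPM (0.27, adjusted p 4e-04). KLF3 rose from 67.1 ± 1.39 to 76.0 ± 2.40 CPM (0.19, adjusted p 0.016). That call was lost without HCT116 NIR replicate 1 (0.17, adjusted p 0.06) and without HCT116 IR replicate 3 (0.17, adjusted p 0.066). KLF5 and KLF16 were not called (log2 fold changes 0.045 and 0.030, adjusted p 0.59 and 0.82). The other 7 called members kept their call in each of the 6 fits with 1 library left out.

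In irradiated MCF10A, KLF4 and KLF6 rose, opposite to HCT116. KLF10 rose and KLF11 and KLF13 fell, as in HCT116. KLF5 fell, and KLF7 rose slightly, a call that most fits without a single library did not keep. These 7 of 10 members (4 higher, 3 lower) were called, where 55.3% of 15154 tested genes were called, 26.2% higher and 29.1% lower. The median of the members was 0.12, against 0.003 for all genes.

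KLF6 rose from 222, 207 and 219 CPM to 371, 361 and 353 CPM (log2 fold change 0.72, SE 0.040, adjusted p 1.7e-16). KLF4 rose from 3.68, 4.06 and 2.77 CPM to 6.69, 5.29 and 8.12 CPM (0.91, SE 0.190, adjusted p 0.00013). Neither pair of groups overlapped, and the irradiated KLF4 libraries still lay under every HCT116 library. KLF10 rose from 90.3 ± 3.01 to 119 ± 9.28 CPM (0.37, SE 0.054, adjusted p 6.8e-07).

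KLF5 fell from 253 ± 6.51 to 206 ± 4.52 CPM (-0.32, SE 0.041, adjusted p 5.1e-08), and KLF11 from 13.3 ± 1.03 to 7.54 ± 0.937 CPM (-0.84, SE 0.129, adjusted p 1.4e-06). KLF13 changed by -0.20 (adjusted p 0.0012), with overlapping CPM (164 to 190 against 152 to 167), and by -0.11 (adjusted p 0.055) under upper-quartile normalization, which put the median over the tested genes at 0.088. KLF7 changed by 0.13 (adjusted p 0.023) and was not called in 4 of the 6 fits that left out a library. These were the fits without MCF10A NIR replicate 1 (0.11, adjusted p 0.084), NIR replicate 3 (0.13, 0.054), IR replicate 1 (0.11, 0.1) and IR replicate 2 (0.084, 0.19), and in the fit over all 18 libraries its adjusted p was 0.1.

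KLF2 was not called in MCF10A, at 0.882, 0.817 and 1.09 CPM before and 1.65, 0.948 and 1.06 CPM after irradiation (log2 fold change 0.37, SE 0.394, adjusted p 0.45). It had 26 to 45 counts a library there, so even a change well above its SE could have been missed at this depth. KLF3 had a fold change of 0.12 (adjusted p 0.09), and was called with upper-quartile factors (0.20, adjusted p 0.0037), with counts halved (0.14, 0.045) and with library size alone (0.14, 0.044). KLF16 was at 23.7 ± 2.09 and 24.3 ± 1.49 CPM (adjusted p 0.93).

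The difference between these responses was tested directly over the 12 monoculture libraries, as HCT116 minus MCF10A. Of the members, 6 of 10 were called (1 higher, 5 lower in HCT116), where 37.3% of 18179 genes were called, 15.4% higher and 22% lower. The members' median was -0.24, against -0.11 for the tested genes together, so small negative values lie near the centre. The largest differences belonged to KLF2 (-2.98, SE 0.348, adjusted p 5.1e-08), KLF7 (-2.27, SE 0.087, adjusted p 5.8e-18), KLF4 (-1.92, SE 0.205, adjusted p 9.4e-09) and KLF6 (-1.30, SE 0.070, adjusted p 8.9e-15). KLF4 and KLF6 changed in opposite directions in the lines, without overlap between treatments in either. KLF5 differed by 0.29 (SE 0.072, adjusted p 0.0019).

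KLF13 differed by -0.31 (SE 0.084, adjusted p 0.0042). This was not called without mitochondrially encoded genes (-0.21, adjusted p 0.055) or in the fit over all 18 libraries (-0.21, 0.065). It was also lost without MCF10A IR replicate 2 (-0.16, 0.19), without MCF10A IR replicate 3 (-0.22, 0.068) and without HCT116 IR replicate 2 (-0.18, 0.14). KLF3, KLF10, KLF11 and KLF16 were not called for a difference (adjusted p 0.99, 0.093, 0.47 and 0.8). KLF10 at -0.18 was called in the fit without HCT116 IR replicate 3 (-0.23, adjusted p 0.043).

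**Figure D2:**
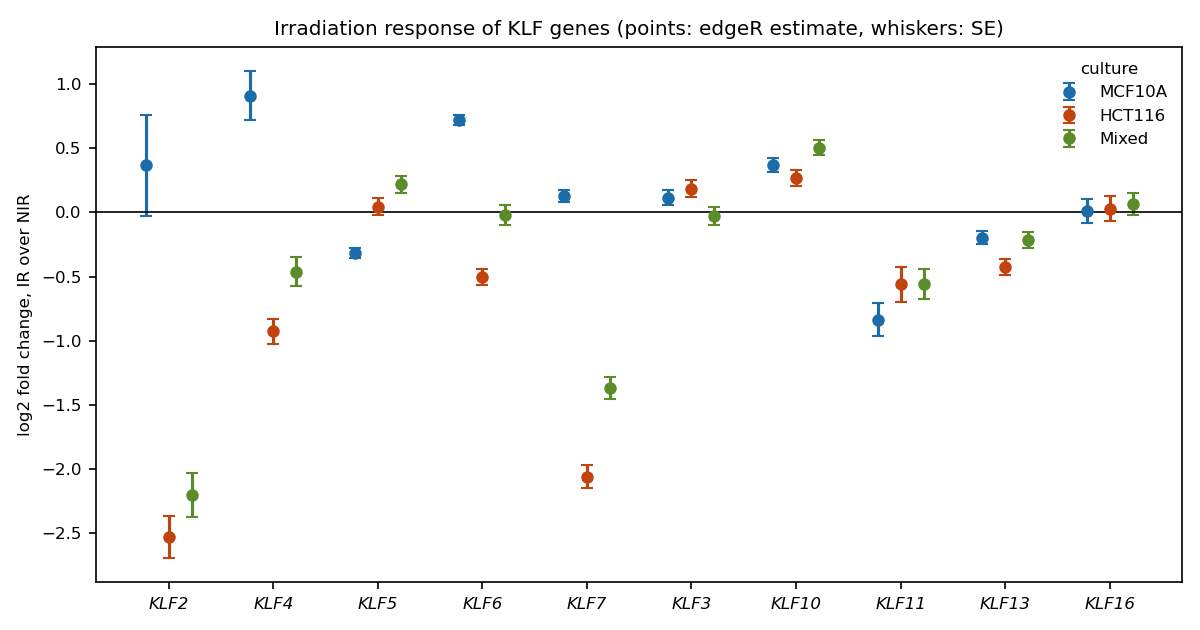
Fitted log2 fold change of IR over NIR (y axis) for each KLF gene in MCF10A, HCT116 and mixed cultures; points are edgeR estimates and whiskers SE. KLF4 lay at 0.91 in MCF10A and at -0.93 in HCT116, and KLF7 lay at 0.13 and -2.06.

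In the mixed cultures, where the set was chosen, the values are given without a test. KLF2 was at 23.7, 35.4 and 24.0 CPM in mixed NIR and at 7.54, 5.35 and 5.49 CPM in mixed IR, a log2 fold change of -2.21. NIR replicate 2 was the highest of all 18 libraries. KLF2P1 was at 0.925 ± 0.245 CPM in mixed NIR and 2.78 ± 0.209 CPM in mixed IR, without overlap, and with both counted as 1 gene the log2 fold change was -1.71. KLF7 went from 43.5 ± 2.34 to 17.2 ± 0.909 CPM (-1.37), KLF4 from 25.0 ± 4.28 to 18.5 ± 1.60 CPM (-0.46) and KLF11 from 15.2 ± 1.04 to 10.5 ± 0.878 CPM (-0.56). KLF10 went from 127 ± 8.96 to 184 ± 2.51 CPM (0.51) and KLF5 from 70.0 ± 4.68 to 83.2 ± 2.29 CPM (0.22). KLF13 was at -0.22, KLF3 at -0.028, KLF16 at 0.066, and KLF6 was level at 139 ± 15.0 and 140 ± 12.4 CPM (-0.021). Of the 16906 genes tested in this contrast, 49.4% were called, and calls among the members are not counted here because it chose them.

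The mixtures held little MCF10A RNA. From the median of 144 MCF10A-specific and 153 HCT116-specific genes (at least 20 CPM in a line and under 1 CPM in each library of the other), MCF10A was estimated at 0.399% to 0.504% of RNA in the NIR mixtures. From 143 and 139 genes the estimate was 1.17% to 1.29% in the IR mixtures. These ranges are over 3 libraries and leave out the spread between genes. KRT5 was at 0.724 CPM in mixed NIR against 2883 CPM in MCF10A NIR, and TGFBI at 31.2 against 2555 CPM. In IR they were at 2.72 against 2784 CPM and at 124 against 3299 CPM. Single markers thus gave lower (KRT5) and higher (TGFBI) shares than the median. The 10 MCF10A markers summed to 776 to 880 CPM in mixed NIR and 1527 to 1750 CPM in mixed IR, with none at 0. Most of that was ITGB4 (460 and 1025 CPM) and CAV1 (284 and 293 CPM), which HCT116 alone carried at 477 and 979 CPM and at 286 and 372 CPM, so these sums do not measure MCF10A RNA. In bulk RNA, fewer cells of a line and less RNA per cell cannot be told apart. Mixed libraries were therefore set against HCT116 alone, and against a sum of the monoculture means weighted by the mean share.

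Without irradiation no KLF gene was called between the mixtures and HCT116, where 2.22% of 16455 genes were called. The fold changes of the 9 tested members lay between -0.28 (KLF4, SE 0.110, adjusted p 0.22) and 0.11 (KLF11, SE 0.125, adjusted p 0.75). At an unadjusted p under 0.05, the differences of KLF4 and KLF7 (-0.16, SE 0.076) passed. DESeq2 called no member either. KLF2, described only, was 1.18 times its HCT116 level with overlapping libraries.

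After irradiation KLF6, KLF7 and KLF10 were higher in the mixtures than in HCT116 alone and KLF3 was lower, 4 of the 9 tested members, where 8.91% of 17137 genes were called, 5.28% higher and 3.64% lower. KLF6 was at 154, 132 and 133 CPM in mixed IR and 96.1, 91.4 and 96.2 CPM in HCT116 IR (log2 difference 0.56, SE 0.059, adjusted p 1.5e-08). KLF7 was at 17.6, 16.1 and 17.8 CPM against 12.4, 11.3 and 11.4 CPM (0.54, SE 0.111, adjusted p 0.00099). Each mixed library lay above each HCT116 library for both. KLF10 was at 183, 187 and 183 CPM against 153, 143 and 166 CPM (0.25, SE 0.053, adjusted p 0.0014).

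KLF3 was at 66.6 ± 4.06 against 76.0 ± 2.40 CPM (-0.20, SE 0.061, adjusted p 0.033). This call was lost with library size alone (-0.19, 0.051), over all 18 libraries (-0.17, 0.089) and in 5 of the 6 fits that left out a library. These were the fits without HCT116 IR replicate 2 (-0.20, 0.081) or 3 (-0.18, 0.13) and without mixed IR replicate 1 (-0.16, 0.18), 2 (-0.23, 0.054) or 3 (-0.21, 0.083). KLF2, described only, was at 6.13 ± 1.23 against 3.98 ± 1.2 CPM, and with KLF2P1 added at 8.90 ± 1.42 against 6.71 ± 0.534 CPM. KLF4, KLF5, KLF11, KLF13 and KLF16 were not called (adjusted p 0.18 to 0.71).

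The weighted sum for KLF6 in the IR mixtures was 97.9 CPM, and the measured level of 140 CPM was 1.43 times that. For KLF7 the weighted sum was 13.5 CPM and the measured level 1.27 times higher, for KLF10 153.5 CPM and 1.2 times, and for KLF3 75.9 CPM and 0.877 times. For KLF2 the sum was 3.94 CPM, with the mixtures at 1.55 times that. In the NIR mixtures the ratio lay between 0.817 (KLF4) and 1.19 (KLF2). At equal parts of RNA, KLF7 in the IR mixtures would have been at 83.6 CPM. The sums rest on the median share, and single markers gave lower and higher shares, so the ratios are uncertain to that extent. The share moves with irradiation, and its part in each difference beyond this sum was not tested.

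The response of the mixtures minus that of HCT116 holds the contrast used to choose the set and is given as values. It was 0.71 for KLF7, 0.50 for KLF6, 0.48 for KLF4, 0.34 for KLF2, 0.25 for KLF10, 0.22 for KLF13 and 0.19 for KLF5. KLF11 was at 0.015, KLF16 at 0.047 and KLF3 at -0.20. Of 18072 genes, 0.963% were called in this comparison. The comparisons of the mixtures with HCT116 and the HCT116 response share the HCT116 libraries.

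**Figure D3:**
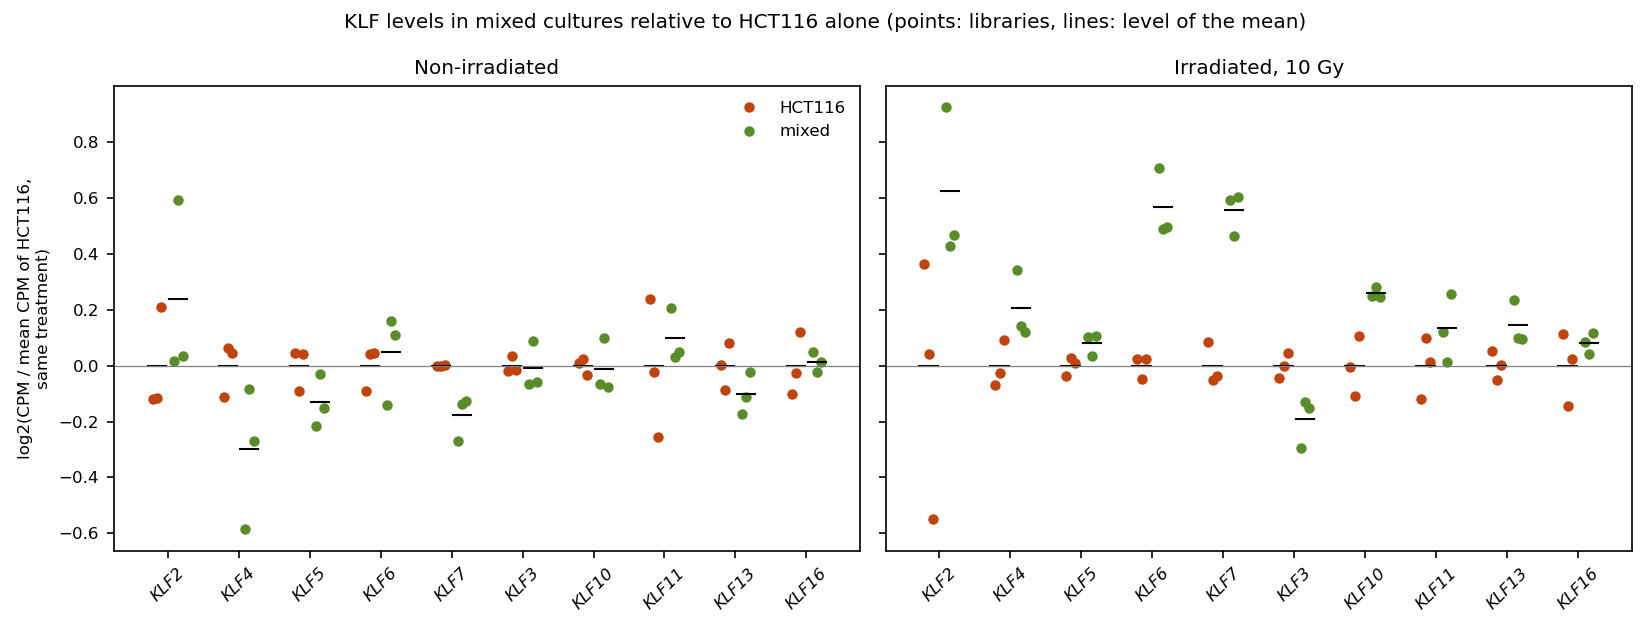
Level of each KLF gene in HCT116 and mixed libraries relative to the mean CPM of HCT116 under the same treatment (y axis, log2), without irradiation (left) and after 10 Gy (right); points are libraries and short lines the level of each mean. After irradiation all 3 mixed libraries lay above all HCT116 libraries for KLF6 and KLF7, and below them for KLF3. They also lay above them for KLF2, KLF4, KLF5, KLF10 and KLF13, of which KLF4, KLF5 and KLF13 were not called. The share of all genes separated in this way is not given here.

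Over the 6 groups KLF2 was highest in mixed NIR (27.7 ± 6.63 CPM) and HCT116 NIR (23.5 ± 3.19 CPM), whose libraries overlapped. Mixed IR (6.13 ± 1.23 CPM) and HCT116 IR (3.98 ± 1.2 CPM) followed, and MCF10A IR (1.22 ± 0.379 CPM) and MCF10A NIR (0.931 ± 0.144 CPM), which overlapped, were lowest. The 5 genes closest to KLF2 by Pearson r of log2(CPM + 1) over the 18 libraries, among 10904 genes with at least 10 CPM in a group, were CTSV (0.98), SFR1 (0.98), LIFR (0.98), KIAA0319 (0.98) and PLCB3 (0.98). CTSV, a lysosomal cysteine protease, went from 35.3 ± 2.40 to 12.7 ± 1.12 CPM in HCT116 and stood at 7.59 ± 0.113 CPM in MCF10A NIR. LIFR, the receptor of leukaemia inhibitory factor, went from 70.6 ± 0.607 to 28.6 ± 2.52 CPM in HCT116. With 18 libraries in 6 groups such values mostly follow the group means, and they are a description.

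The other genes of the family and its surroundings came from lists written from general knowledge. Their counts stand beside 25.4% of all tested genes called higher and 27.3% lower in HCT116, and 26.2% higher and 29.1% lower in MCF10A. No list was tested as a list. Of 8 other KLF genes, 5 could be tested in HCT116, where 3 fell and none rose. KLF12, a CtBP-binding repressor, fell from 15.9 to 6.06 mean CPM (-1.38, SE 0.154, adjusted p 1.3e-08), and KLF9, a glucocorticoid-induced repressor, from 22.8 to 14.0 CPM (-0.69, SE 0.107). In MCF10A 4 were tested, of which KLF8 rose (0.32, SE 0.089, adjusted p 0.0027) and KLF9 fell (-0.36, SE 0.089, adjusted p 0.00089). Of 9 SP factors, relatives that bind GC boxes, 6 of 8 tested fell and 1 rose in HCT116. In MCF10A 3 of 6 fell and 1 rose. SP4 fell in both (-1.42 in HCT116 and -0.94 in MCF10A), as did SP1 (-0.65 and -0.41) and SP3 (-0.53 and -0.34). SP6 rose in both (0.88 and 0.69), from 3.75 to 6.17 mean CPM in MCF10A.

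Kinases and factors known to induce KLF2 and KLF4 made up a further list. Of 9 tested in HCT116, 1 rose and 4 fell, among them MAP3K3 (42.1 to 20.5 mean CPM, -1.03, SE 0.091, adjusted p 1.3e-10), which activates the ERK5 cascade, MAP3K2 (-0.41) and MAPK7, which encodes ERK5 (13.8 to 8.72 CPM, -0.64, SE 0.141, adjusted p 0.00034). In MCF10A 2 of 8 rose, MAPK7 (9.30 to 15.8 CPM, 0.75, SE 0.113, adjusted p 9.9e-07) and MEF2D (0.43, adjusted p 7.3e-10), and none fell. In the test of the difference, 4 of 9 were lower in HCT116 and none higher, beside 22% and 15.4% of all genes. MAPK7 was among them (-1.46, SE 0.187, adjusted p 2.6e-07). MEF2C, a MEF2 factor, stood at 42.2 ± 0.273 CPM in HCT116 NIR and 41.4 ± 6.20 CPM in HCT116 IR and had no count in the 6 MCF10A libraries. Against a floor of 3 counts over 3 libraries it was at least 1389-fold higher in HCT116 NIR (694-fold with counts halved), a bound that covers counting error only. It was not called for a response in HCT116 (-0.018, SE 0.090, adjusted p 0.89).

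Of 9 cofactors, all tested in both lines, 3 rose and 2 fell in MCF10A, and 2 rose and 4 fell in HCT116. SIN3A fell in HCT116 (-0.67, SE 0.057, adjusted p 5.6e-11), as did the deacetylase HDAC2 (-0.42), and the acetyltransferase CREBBP rose (0.37). SIN3B rose there as well (0.23, adjusted p 0.0073) and KAT2B fell (-0.33, adjusted p 0.032). In MCF10A SIN3B rose (0.48), SIN3A and HDAC2 fell (-0.20 and -0.47) and KAT2B was at 0.31 with an adjusted p of 0.049. KAT2B was not called without MCF10A NIR replicate 1 (0.27, 0.14) or 2 (0.25, 0.14), without IR replicate 1 (0.22, 0.24) or 3 (0.25, 0.18), and with DESeq2 (0.057), without a filter (0.06) or over all 18 libraries (0.073).

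Of 9 enzymes that add or remove ubiquitin on KLF proteins, 5 rose and 1 fell in MCF10A (beside 55.3% of all genes called), and 3 rose and 2 fell in HCT116 (beside 52.7%). FBXO32, a ligase subunit that targets KLF4, rose in MCF10A from 20.5 to 63.5 mean CPM (1.61, SE 0.085, adjusted p 2.1e-16), SMURF1 rose by 0.47 and SIAH1 changed by -0.52. In HCT116 SMURF2 rose by 0.82 (0.30 in MCF10A, adjusted p 5.3e-06) and FBXW7, which targets KLF5, by 0.60 (adjusted p 1.5e-07). SIAH1 was at -0.34 there (adjusted p 0.046) and was not called without HCT116 NIR replicate 2 (-0.31, 0.13) or 3 (-0.32, 0.085), without IR replicate 1 (-0.19, 0.28), with DESeq2 (0.061), with upper-quartile factors (0.053) or over all 18 libraries (0.055).

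Of 13 genes reported as KLF targets, 11 were tested in MCF10A (5 higher, 3 lower) and 10 in HCT116 (5 higher, 4 lower), with medians of 0.21 and 0.46 against 0.003 and 0.007 for all genes. CDKN1A, the p21 inhibitor that KLF4 and KLF6 are known to activate, rose by 1.76 in MCF10A and 2.33 in HCT116. In MCF10A IVL, which encodes the keratinocyte protein involucrin, rose from 2.07 to 10.6 mean CPM (2.33, SE 0.186, adjusted p 1.4e-12) and CCNB1, encoding cyclin B1, fell by 1.33 on the log2 scale. In HCT116 CCND1, encoding cyclin D1, rose by 1.91 (SE 0.054, adjusted p 4.4e-21) and BIRC5, encoding survivin, fell by 1.27. CCNB1 was also called in HCT116 (-1.09), and BIRC5 (-1.23) and CCND1 (0.69) were also called in MCF10A. In the test of the difference the rise of CCND1 was larger in HCT116 (1.14, adjusted p 3.2e-14). CCNB1 and BIRC5 were not called for a difference (adjusted p 0.092 and 0.29). These genes have many regulators, and the lists hold members that move in either direction.

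**Figure D4:**
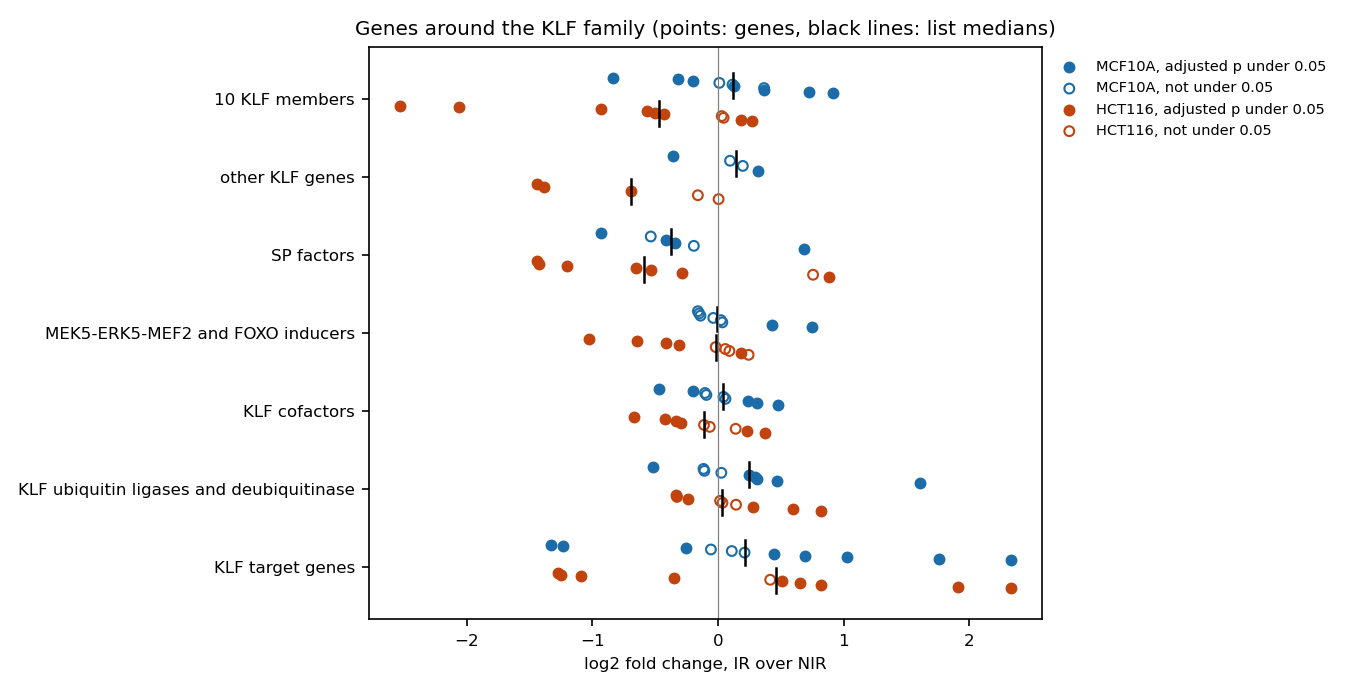
Log2 fold change of IR over NIR (x axis) for the tested genes of each list in MCF10A (blue) and HCT116 (orange); filled points have an adjusted p under 0.05 and black lines are list medians. The KLF members had a median of 0.12 in MCF10A and -0.47 in HCT116.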

How the data were processed

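RNA was extracted with TriZol and prepared with a stranded poly(A) mRNA kit, per the labels' protocols. The authors deposited 1 table of raw counts per gene symbol and library. The submitters' processing notes name fastp, STAR, featureCounts and GRCh38. Versions, the annotation, strand and multi-mapping settings are not given in the sources used here. Counts from 1 to 10 were even in 68.4% of values, so fits with counts halved were run. Intervals from counts are not given. Counts of replicates were further apart than counting error allows (chi-squared per gene at least 4.77, or 2.39 with counts halved).

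Each comparison was fitted over all genes with edgeR 4.0.16 in R 4.3.3 (filterByExpr, TMM, quasi-likelihood F test with robust estimation, 2-sided) on the libraries of its groups. Genes with a Benjamini-Hochberg adjusted p under 0.05 were called. Log2 fold changes are from these fits, SE from the F statistic, and CPM from library totals. The script was run on simulated data with the same dispersion for all genes. In them 100 genes changed by a log2 size of 1 and 100 by 2. Of the calls, 6.54% were false for the MCF10A response and 2.49% for the difference of the responses. Far more genes were called in the real data, so the run checks the script and not the error rate of these results. The members and lists were chosen with earlier results of these data known. All members were named in each comparison. List genes were named in the irradiation responses of the lines, at most 3 per list, with the largest changes among those called and at 10 CPM or more in the higher group. Where such a gene was also called in the other line, its value there was added whatever its rank or level. MAPK7, MEF2C and KLF2P1 were followed further after their values were seen. Alternatives were DESeq2 1.42.0, upper-quartile factors, no filter, halved counts, 1 fit of all 18 libraries, a replicate block and leaving out each library. Library size alone, a fit without mitochondrially encoded genes and 1 with KLF2P1 counts added to KLF2 were added after seeing the data. P-values set each difference against the spread between these libraries, which the fit estimates with information from all genes. The check of a genotype label is not reported here.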

Additional observations from a re-analysis of the deposited data

Results flagged for a closer look

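The irradiation response differed between the lines for 6 members, by the test of the difference itself (HCT116 minus MCF10A, log2, edgeR, adjusted p under 0.05). KLF2 differed by -2.98 and fell in HCT116, while it was not called in MCF10A. With KLF2P1 counts added the difference was -2.38. KLF7 differed by -2.27 and KLF4 by -1.92. KLF6 differed by -1.30, with a rise in MCF10A and a fall in HCT116. KLF13 differed by -0.31 and KLF5 by 0.29. For KLF2, KLF4, KLF5, KLF6 and KLF7 the call was kept in all 12 fits that left out a library. Over the tested genes together the median difference was -0.11.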

How the results depend on the processing

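Over the members and named list genes, 1768 values under alternatives counted as kept. A tested value was kept if it stayed on its side of the threshold, with the same sign wherever it was called. An untested value was kept if it moved by less than the replicate SD. Values near 0 could thus change sign and still count as kept. Of the others, 33 lost a call and 4 gained one. A further 8 untested values moved by the replicate SD or more with the same sign, and 2 did so with a change of sign. The 2 were the mixed minus HCT116 response of KLF11 without HCT116 NIR replicate 1 (-0.139) and of KLF16 without HCT116 NIR replicate 3 (-0.051), whose values ran from -0.139 to 0.092 and from -0.051 to 0.088 without single libraries. Counts of all genes called between the NIR mixtures and HCT116 (365) were 576 with DESeq2, 702 without a filter, 828 over all 18 libraries and 153 to 361 without single libraries. The count after irradiation (1527) was 879 to 1360 without single libraries. The count for the mixed minus HCT116 response (174) was 327 with DESeq2, 320 without a filter and 79 to 250 without single libraries, and 1 to 2 members passed the threshold there, a count that is no test because the contrast chose the set. With upper-quartile factors 57.5% of called genes rose in MCF10A, against 47.3%. The share of calls higher in HCT116 NIR than MCF10A NIR was 62.4% with upper-quartile factors and 62.2% with library size alone, against 51.8%. For the difference of the responses it was 52.5% without mitochondrially encoded genes, 52% without a filter and 51.9% over all 18 libraries, against 41.1%. For the IR mixtures against HCT116 it was 80.6% over all 18 libraries, against 59.2%, and for the NIR mixtures 65.6%, against 45.2%. For the mixed minus HCT116 response it was 61.5% with DESeq2 and 67.4% without mitochondrially encoded genes, against 77.6%. The cause of these shifts was not tested. Replicate numbers were not taken as pairs: residual correlations of same-numbered libraries ran from -0.043 to 0.11, and in 0 of 11 pairs of groups did every library correlate best with its own number. Between the mixtures and HCT116 under the same treatment, 4 of 6 libraries did so, without and with irradiation. With the replicate block, 739 genes were called between the NIR mixtures and HCT116, and 2227 between the IR mixtures and HCT116, against 365 and 1527. In the other comparisons fewer genes were called with the block. A replicate effect shared by the mixtures and HCT116 was not tested further. The counts of members called with the block were 7 in MCF10A, 8 in HCT116 and 6 for their difference, as without it. Depth limits KLF2 in MCF10A, with at most 45 counts a library.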

Other observations

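The other RNAs counted at KLF loci were low throughout. KLF3-AS1, antisense to KLF3, was at 1.35 ± 0.300 CPM in HCT116 NIR and 0.725 ± 0.229 CPM in HCT116 IR. KLF7-IT1, an intronic transcript of KLF7, was at 0.989 ± 0.188 CPM in MCF10A NIR and 1.77 ± 0.245 CPM in MCF10A IR. NOS3, the endothelial nitric oxide synthase gene that KLF2 is known to activate in vessels, was at 10.2 ± 1.57 CPM in HCT116 NIR and 14.4 ± 0.883 CPM in HCT116 IR (log2 fold change 0.51, SE 0.132, adjusted p 0.0019, edgeR), where KLF2 fell. S1PR1, another such gene, rose in MCF10A from 4.04 to 8.40 mean CPM (1.03, SE 0.171, adjusted p 4.7e-06) and stood at 0.121 CPM in HCT116 NIR. NOS3 and S1PR1 were singled out after their values were seen. THBD, also on the list of KLF targets, was not called for a response in MCF10A or HCT116 (adjusted p 0.45 and 0.52, edgeR). It stood at 24.5 CPM in MCF10A NIR and 0.54 CPM in HCT116 NIR.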
